A study of Mus musculus with 2 samples.

Results

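Collagens are the triple-helical proteins of the extracellular matrix, and the genes described here are those mouse genes whose symbol has the form Col, number, a, number, leaving out Col1a1, Col1a2, Col3a1 and Col8a1. The rule gave 40 genes, 39 of which had at least 1 named probe among the 20660 named genes on the array. Of the 39, 31 were well above background on both arrays and were compared, out of 15737 named genes compared in all. Messenger RNA was measured in brain tissue of male C57Bl/6 N mice aged 12 weeks, either wild type (Il18+/+) or without a working copy of Il18 (Il18-/-), the gene of the inflammatory cytokine interleukin-18. Total RNA of 7 mice was pooled for each genotype, and each Cy3-labelled pool was read on 1 Agilent array in 1 colour, so each genotype is 1 pool with no replicate. The labels give the tissue as hippocampus, but the protocol for RNA extraction names prefrontal cortex, as does a sentence of the design text. All 8 markers of dentate granule neurons and all 10 markers of pyramidal neurons of hippocampal fields CA1 to CA3 were well above background on both arrays. So were 15737 of all 20660 named genes and 12 of 14 liver markers. No list of cortical markers was read, so these counts do not tell hippocampus from prefrontal cortex.

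Each collagen gene encodes 1 alpha chain, and a molecule is a trimer of like or different chains. Fibrillar collagens form the cables of connective tissue, type IV collagens form the sheet of the basement membrane, and the remaining types decorate fibrils, form networks and filaments or sit in cell membranes. Healthy brain tissue has little fibrillar collagen outside the meninges, the choroid plexus and vessel walls, whereas type IV collagen lies in the basement membrane of every brain vessel.

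A level is the log2 processed intensity of a probe minus the 75th percentile of its array, so 0 is the signal of a probe brighter than 75% of the spots. A difference is the level in Il18-/- minus that in Il18+/+. Where several probes of a gene were measured, the gene has their mean. Levels of different genes come from different probes and are not compared with each other. With 1 pool per genotype no difference could be tested, and in bulk RNA fewer cells of a type and less RNA per cell cannot be told apart. The number of arrays limits the precision. The difference of a probe spotted 10 times had a median standard deviation of 0.07 between its spots, and the probes of a gene had a median standard deviation of 0.12 between them. Both values cover technical error within these arrays and not the variation between mice.

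Most collagen genes read lower in Il18-/-. Of the 31 measured genes, 27 were lower and 4 were higher, which is 87.1% lower. Of all 15737 measured genes, 47.4% were lower and 52.6% were higher. The median difference of the collagens was -0.18, and that of all measured genes was 0.01. Most single differences were small. Only 4 collagens were at least 1.5-fold lower (2.57% of all measured genes were), and 2 were at least 1.5-fold higher (1.68% of all). In either direction these are 6 of 31 collagens, against 4.25% of all measured genes. Among all genes that share was larger for dim probes, where most collagens lie, as given below by signal. With the arrays scaled to the spike-in controls, 12 of 31 collagens were at least 1.5-fold lower and 0 higher. Of all 15737 genes, 1862 were then at least 1.5-fold lower and 127 higher. The comparison of shares lower by any size turned, with 87.1% of the collagens and 94.6% of all genes lower. That scaling lowers every gene alike, and the collagen median minus that of all genes was -0.19 under both. With another background correction (normexp), 1 collagen was at least 1.5-fold lower and 1 higher, against 107 and 113 of all 15737 genes. A single collagen was at least 2-fold lower (0.451% of all). The 4 lower genes were Col8a2, Col9a3, Col4a4 and Col6a4, and the 2 higher ones were Col22a1 and Col27a1. Col6a3 and Col9a1, the remaining higher members, stayed under 1.5-fold.

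**Figure D1:**
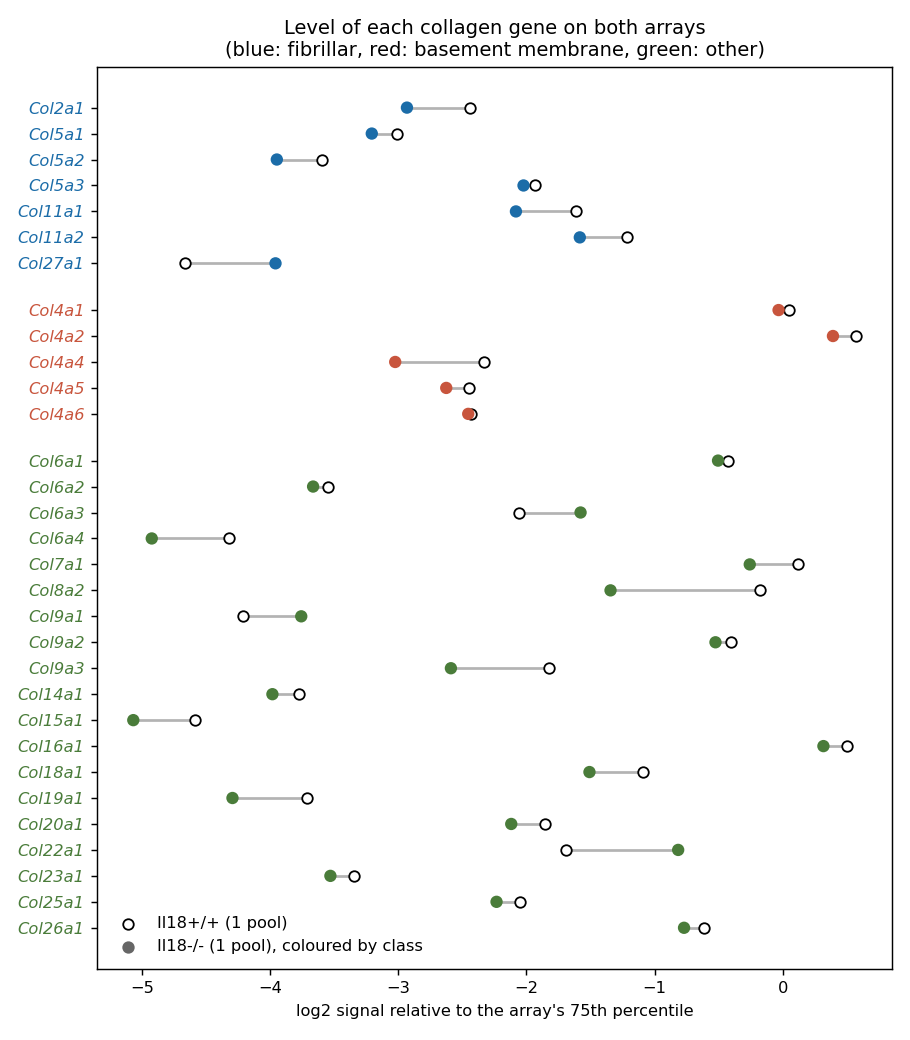
Level of each of the 31 measured collagen genes in the Il18+/+ pool (open circles) and the Il18-/- pool (filled circles, coloured by class), as log2 signal minus the array's 75th percentile. A line joins the readings of a gene; the filled circle lies to the left for 27 genes and to the right for Col22a1, Col27a1, Col6a3 and Col9a1.

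Dim probes as a whole read somewhat lower in Il18-/-. To set the collagens beside genes of like probe signal, which is no measure of transcript amount across genes, all measured genes were divided into 4 groups of like size by their mean signal over both arrays. In the dimmest group 59.5% of all genes were lower in Il18-/-, and in the brightest group, which held no collagen gene, 26.2% were. In the dimmest group, 12 of 14 collagens were lower, with a median of -0.20 against -0.08 for all genes of that group. In the next group, 11 of 13 were lower, with a median of -0.18 against -0.04 for all. In the group above it, all 4 collagens, namely Col16a1, Col4a1, Col4a2 and Col7a1, were lower, with a median of -0.18 against 0.02 for all genes there, of which 44.8% were lower. In each group that held collagens, the share of lower genes was thus larger among them than among all genes. At 1.5-fold in either direction, the dimmest group had 3 of 14 collagens, against 11.9% of all its genes. The next group had 3 of 13 against 3.02%, and the group above it had 0 of 4 against 1.47%. In the brightest group 0.559% of all genes passed. The part of signal level in these counts was not tested further.

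Col8a2 differed most among the lower members. It encodes a short network-forming chain of type VIII collagen, known from the basement membrane under the corneal endothelium. Its brighter probe read -0.18 in Il18+/+ and -1.34 in Il18-/-, which is 2.25-fold lower. A second probe read -4.35 in Il18+/+ and -5.42 in Il18-/-, where it was not well above background. Its readings were 2.10-fold apart. Both probes of Col8a2 thus read lower in Il18-/-. Only 39 of the 15737 measured genes had a lower difference than Col8a2.

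The other chain of type VIII collagen, Col8a1, is not among the 40 genes, and it read -2.63 in Il18+/+ and -4.08 in Il18-/-, or 2.74-fold lower. Both genes of this collagen type were thus at least 2-fold lower. Of the remaining collagens outside the rule, all fibrillar, Col1a1 differed by -0.33, Col1a2 by -0.17 and Col3a1 by 0.11.

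Promoter sequences are shown for Col8a2, Col27a1 and Col6a4, because these members passed 1.5-fold and their window holds no other annotated gene. Each is the run of 250 bases before the RefSeq start on GRCm38.p6, read on the strand of the gene. The window of Col8a2 is chr4:126286544-126286793 on the plus strand, that of Col27a1 is chr4:63215162-63215411 on the plus strand and that of Col6a4 is chr9:106096692-106096941 on the minus strand. Capitals mark the GC box GGGCGG and the CCAAT box, searched on both strands together with the TATA box TATAAA.
Col8a2: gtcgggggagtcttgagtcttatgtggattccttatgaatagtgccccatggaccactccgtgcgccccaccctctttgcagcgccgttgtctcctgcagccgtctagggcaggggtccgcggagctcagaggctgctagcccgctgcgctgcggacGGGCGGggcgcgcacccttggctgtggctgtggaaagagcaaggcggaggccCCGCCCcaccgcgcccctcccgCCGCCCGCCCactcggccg
Col27a1: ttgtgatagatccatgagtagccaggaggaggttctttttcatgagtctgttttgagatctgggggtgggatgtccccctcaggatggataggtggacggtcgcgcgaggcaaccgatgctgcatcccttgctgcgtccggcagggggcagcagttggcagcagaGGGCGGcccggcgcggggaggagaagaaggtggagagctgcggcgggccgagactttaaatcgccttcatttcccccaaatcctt
Col6a4: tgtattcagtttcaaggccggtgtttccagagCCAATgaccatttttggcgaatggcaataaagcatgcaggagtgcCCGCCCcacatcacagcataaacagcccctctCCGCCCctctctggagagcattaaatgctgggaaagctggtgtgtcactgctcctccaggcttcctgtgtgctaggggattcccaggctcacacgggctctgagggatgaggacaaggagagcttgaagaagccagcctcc

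The Col8a2 window held 4 GC boxes, 2 of them overlapping, and a GC content of 70.0%. That of Col27a1 held 1, with 59.6% GC. That of Col6a4 held 2 GC boxes and 1 CCAAT box, with 55.2% GC. None of these windows held TATAAA. RefSeq windows were found for 32 of the 40 collagen genes, 35 windows in all, and their GC boxes were the motif that departed most from the rest. A GC box was present in 20 of 35 collagen windows (57.1%) and in 32.7% of all 32851 windows of that length. CCAAT was present in 12 of 35 (34.3%) and in 33.8% of all windows. TATAAA was present in 4 of 35 (11.4%) and in 12.4% of all. The GC box holds only G and C, and all windows together had 53.2% GC. The part of base content in its share was not tested. These matches describe letters and not binding sites.

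Among the fibrillar collagens, 6 of 7 measured genes were lower in Il18-/-, none of them by 1.5-fold, and Col27a1 was higher. Their median difference was -0.35. The chains of cartilage-type fibrils were close to each other. Col2a1, the main fibrillar collagen of cartilage and of the vitreous body, read -2.44 in Il18+/+ and -2.93 in Il18-/-. Col11a1 read -1.62 and -2.08, and Col11a2 read -1.22 and -1.58. The chains of type XI collagen, which sits in the core of type II fibrils and uses the Col2a1 product as a further chain, thus differed by -0.49 to -0.37, a spread of 0.13.

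Type V collagen limits the diameter of type I fibrils. Its chains differed by -0.35 to -0.09. Col5a2 read -3.59 in Il18+/+ and -3.95 in Il18-/-. Col5a1 read -3.01 and -3.21, and Col5a3 read -1.94 and -2.02. All 3 were lower. With the normexp correction, Col5a2 was at -0.15 and Col5a3 turned to 0.05. Col27a1, a short fibrillar collagen of cartilage, read -4.67 in Il18+/+ and -3.96 in Il18-/-, which is 1.63-fold higher. This single probe is dim, and its difference was 0.15 with the normexp correction. Col24a1, a fibrillar collagen of developing bone, was not well above background on either array.

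In the basement membrane class, 5 of 6 genes were measured and all 5 were lower, with a median of -0.18. Col4a1 and Col4a2 encode the chains of the type IV collagen found around nearly all vessels, and they lie head to head on the chromosome. In RefSeq their starts lie on opposite strands, and the first 22 bases are transcribed from both. The Col4a1 probe, printed as 10 spots, read 0.05 in Il18+/+ and -0.03 in Il18-/-, a difference of -0.08 with a standard deviation of 0.06 between spots. The Col4a2 probe read 0.57 in Il18+/+ and 0.39 in Il18-/-. The differences of this pair lay 0.10 apart, and both were small.

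The other type IV chains form the collagen of the kidney filter and of some smooth muscle, and they differed from each other more. Col4a4 read -2.34 in Il18+/+ and -3.02 in Il18-/-, or 1.61-fold lower, and 253 of all measured genes had a lower difference. It rests on 1 of its 3 probes, since the others, at -0.21 and 0.11, were not well above background. Its difference was -0.26 when those were averaged in and -0.45 with normexp, both short of 1.5-fold. Col4a5 read -2.45 and -2.63. Col4a6 read -2.43 and -2.45 as the mean of probes at -0.05 and 0.01. Its value turned positive under 6 of the 7 alternatives that changed it. Among these, a stricter filter on dim probes and reading the brightest probe left only the probe at 0.01. Col4a3, whose chain assembles with those of Col4a4 and Col4a5, was not well above background on either array. The spread over the 3 measured chains was 0.67, and Col4a4 set it.

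Type VI collagen forms beaded microfilaments next to basement membranes, from the chains of Col6a1, Col6a2 and 1 further chain. Col6a1 read -0.43 in Il18+/+ and -0.51 in Il18-/-, and Col6a2 read -3.55 and -3.67. Col6a3, the usual further chain, was higher instead, at -2.06 in Il18+/+ and -1.58 in Il18-/-, or 1.40-fold. Col6a4, an alternative to that chain, read -4.32 and -4.92, or 1.52-fold lower. The chains of type VI collagen therefore did not differ in 1 direction. The Col6a4 probe is dim, and its difference was 0.042 when probes not well above background were averaged in and -0.18 with normexp. The other alternative chains, Col6a5 and Col6a6, were not well above background on either array.

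Fibril-associated collagens lie on the surface of fibrils, and 6 of the 8 measured were lower, with a median of -0.19. Type IX collagen, which coats type II fibrils and joins 3 different chains, had the widest spread of the trimers compared, 1.22. Col9a3 read -1.82 in Il18+/+ and -2.59 in Il18-/-, or 1.70-fold lower, and 171 of all measured genes had a lower difference. Col9a2 read -0.40 and -0.52. Col9a1 read -4.21 and -3.76, or 1.37-fold higher, with its probes at 0.34 and 0.57. With the normexp correction, Col9a1 was at 0.11 and Col9a3 at -0.56, closer to each other than as reported. The chains of this trimer thus pointed in both directions, with the dim Col9a1 as the higher one.

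Col22a1, a collagen of the junctions between muscle and tendon, differed most among the higher members. It read -1.70 in Il18+/+ and -0.82 in Il18-/-, or 1.84-fold higher, and 128 of all measured genes had a higher difference. It rests on 1 probe. Col19a1, which hippocampal interneurons make and which inhibitory synapse formation needs, read -3.71 and -4.29, a difference of -0.58 that lay just inside the 1.5-fold limit. Col6a4, at -0.60, lay just outside it. The difference of Col19a1, which rests on 1 dim probe, was -0.25 with the normexp correction.

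Col16a1 read 0.50 in Il18+/+ and 0.32 in Il18-/-, with probes at -0.20 and -0.16. Another Col16a1 probe was well above background in Il18+/+ only, and it read -5.11 there and -5.83 in Il18-/-. Col20a1 read -1.86 and -2.12, with probes at -0.36 and -0.16. All probes of these genes were on the lower side. Col14a1 read -3.78 and -3.98, but its probes disagreed, at -0.49 and 0.09, and the brighter one gave 0.09. Col12a1, another fibril-associated collagen, had no named probe.

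Col7a1, the collagen of the anchoring fibrils under the epidermis, read 0.12 in Il18+/+ and -0.26 in Il18-/-, or 1.30-fold lower. Col10a1, the network collagen of growth plate cartilage, was not well above background on either array. The multiplexins are collagens of the basement membrane zone, and both were lower. Col18a1, the source of the vessel growth inhibitor endostatin, read -1.09 and -1.51, with probes at -0.58 and -0.26. Col15a1 read -4.59 and -5.07 by 1 dim probe, and its difference was 0.21 when probes not well above background were averaged in.

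Transmembrane collagens were lower by little. Col25a1, a collagen of neurons whose shed ectodomain is found in amyloid plaques, read -2.05 in Il18+/+ and -2.23 in Il18-/-. Its 4 probes ranged from -0.48 to 0.14, so the size of its difference rests on which probe is read. The dimmest probe, at 0.14, read higher, and the others, at -0.48, -0.29 and -0.09, read lower. Col23a1 read -3.35 and -3.53, with probes at -0.28 and -0.08. Col13a1 and Col17a1, transmembrane collagens of the neuromuscular junction and of skin, were not well above background on either array, nor was Col28a1. Col26a1 read -0.61 and -0.77.

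**Figure D2:**
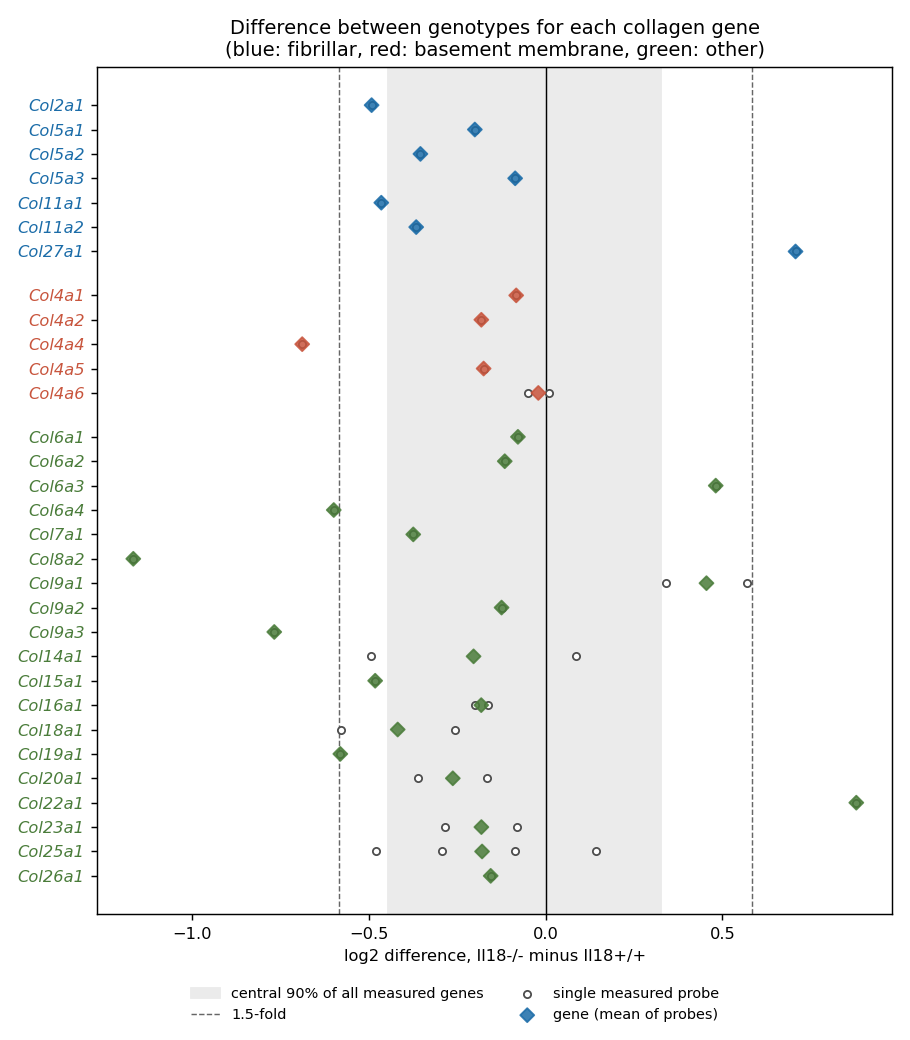
Difference between genotypes on the log2 scale for each of the 31 collagen genes (diamonds), with every measured probe as an open circle, the 1.5-fold limits as dashed lines and the range holding 90% of all measured genes (-0.45 to 0.33) in grey. The diamonds gather to the left of 0, and probes of Col14a1, Col25a1 and Col4a6 fall on both sides of it.

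The number of probes limits these readings. Of the 31 collagen genes, 23 rest on 1 measured probe, the 6 genes past 1.5-fold among them. Of the 8 with several, 5 had all measured probes on 1 side. Counted by probe, 33 of 41 measured collagen probes read lower in Il18-/-. Of the remaining 18 collagen probes, 16 were not well above background on either array and 2 passed on the Il18+/+ array only. No collagen spot past 1.5-fold was in a patch of neighbouring spots that differed alike on the glass. Spots under 1.5-fold could not be counted in this way. Over all measured collagen probes, the neighbouring spots had median differences between -0.28 and 0.24. Around the 6 members past 1.5-fold, the neighbouring spots had median differences between -0.28 and 0.04, and the -0.28 was found around Col9a3.

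Some members depended on how the arrays were processed. Several of the 10 alternatives cannot change a given gene, so each is counted over those that changed its value. Col8a2 was at least 1.5-fold lower under all 6 that changed it, with a range of -1.48 to -1.02. Col9a3 passed 1.5-fold under 4 of 5 and read -0.56 with normexp. Col22a1 passed under 4 of 5 and read 0.57 with the spike-in scaling. Col4a4 passed under 4 of 6, Col27a1 under 3 of 5 and Col6a4 under 1 of 6. A stricter filter on dim probes left these genes out altogether and is not counted for them. Among the 6 members past 1.5-fold, only Col8a2 thus stayed past it under each alternative that changed its value.

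**Figure D3:**
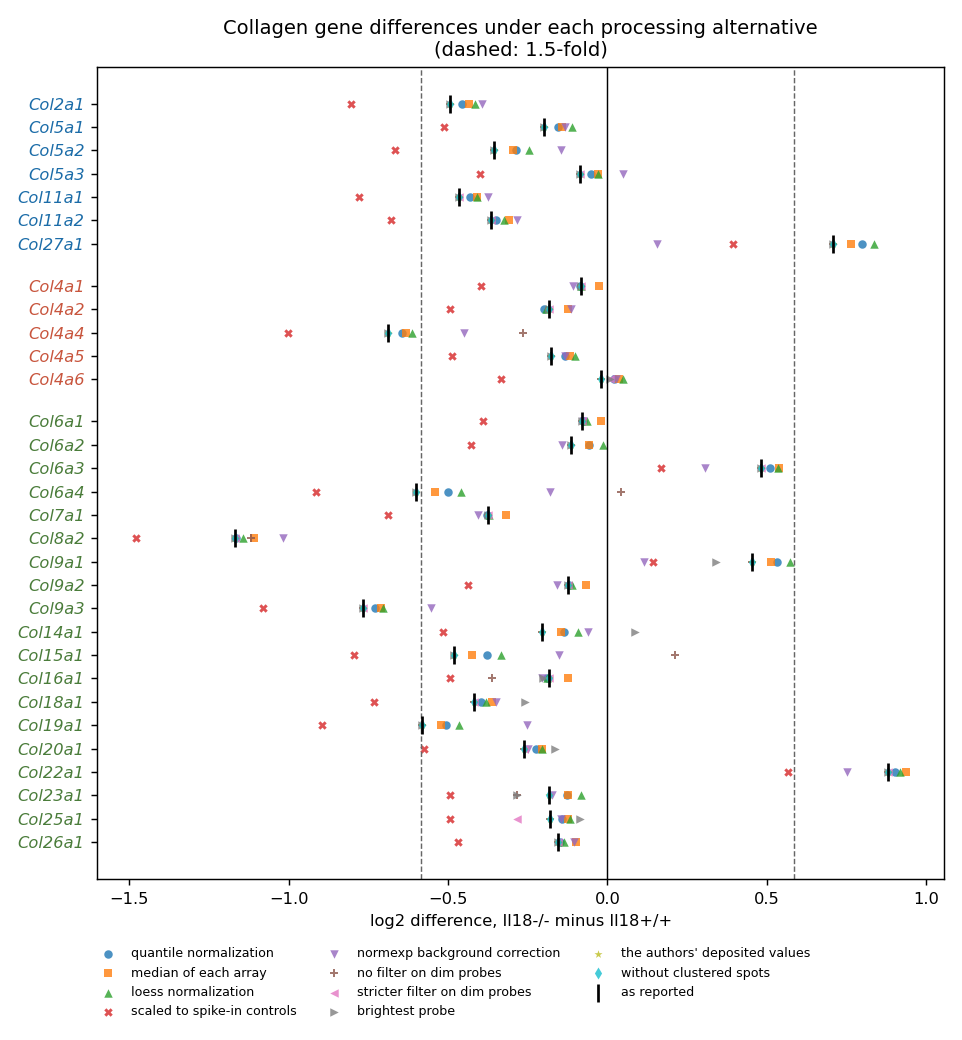
Difference between genotypes on the log2 scale for each collagen gene as reported (black bars) and under the 10 processing alternatives (symbols), with dashed lines at 1.5-fold. Scaling to spike-in controls, shown as red crosses, moves every gene to the left by 0.31, and the symbols of Col8a2 all stay beyond 1.5-fold.

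Genes that make, process, bind and degrade collagens were counted from lists of 77 genes in all, of which 63 were measured. Of these, 47 read lower (74.6%, against 47.4% of all measured genes) and 16 read higher in Il18-/-, and their median was -0.09. Of the 63, only Pcolce and Nid2 were at least 1.5-fold lower, against 2.57% of all measured genes. None was at least 1.5-fold higher, against 1.68% of all. Among 18 measured genes of collagen synthesis, 15 were lower, with a median of -0.09. Serpinh1, the collagen chaperone Hsp47, read 0.57 in Il18+/+ and 0.13 in Il18-/-. P4ha2, a subunit of prolyl 4-hydroxylase, read 1.39 and 0.96. Both were lower by less than 1.5-fold. Fkbp14, a prolyl isomerase, differed by -0.27 with probes at -0.58 and 0.05. P3h1, a prolyl 3-hydroxylase, differed by 0.24 with probes at -0.03 and 0.50.

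Among 11 measured genes of propeptide removal and crosslinking, 9 were lower, with a median of -0.09. Pcolce, an enhancer of the protease that removes the C-propeptide of fibrillar procollagens, read 2.94 in Il18+/+ and 2.23 in Il18-/-, or 1.64-fold lower. Its relative Pcolce2 read 0.66 and 0.09, or 1.49-fold lower. Both enhancers were thus lower by more than any other gene of this list. Adamts3, a procollagen N-proteinase, differed by -0.24, and Loxl3, a crosslinking oxidase, by -0.13.

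The proteins that share the basement membrane with type IV collagen were divided, with 10 of 16 measured genes lower and a median of -0.11. Nid2, a nidogen that links laminin to type IV collagen, read -2.48 in Il18+/+ and -3.14 in Il18-/-, or 1.58-fold lower. Its relative Nid1 differed by -0.38. Hspg2, the gene of the proteoglycan perlecan, and Lamb2, a laminin chain gene, each differed by -0.35.

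Of 5 measured small proteoglycans of the fibril surface, 4 were lower, with a median of -0.15. Bgn, the biglycan gene, differed by -0.40, Dcn, the decorin gene, by -0.37, Lum, the lumican gene, by -0.15 and Ogn, the osteoglycin gene, by 0.10. Of 7 measured collagen receptors, 4 were lower, with a median of -0.04. Itgb1, the shared beta chain of the collagen-binding integrins, differed by -0.37 and the receptor kinase Ddr2 by -0.22, while Itga11 differed by 0.36. Itga1 differed by 0.43 with probes at -0.20 and 1.05, so its probes disagreed. Of 6 measured genes of collagen degradation, 5 were lower, with a median of -0.10. The collagenase Mmp14 differed by -0.20, the gelatinase Mmp2 by -0.15, and the inhibitors Timp2 and Timp3 by -0.14 and -0.06.

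**Figure D4:**
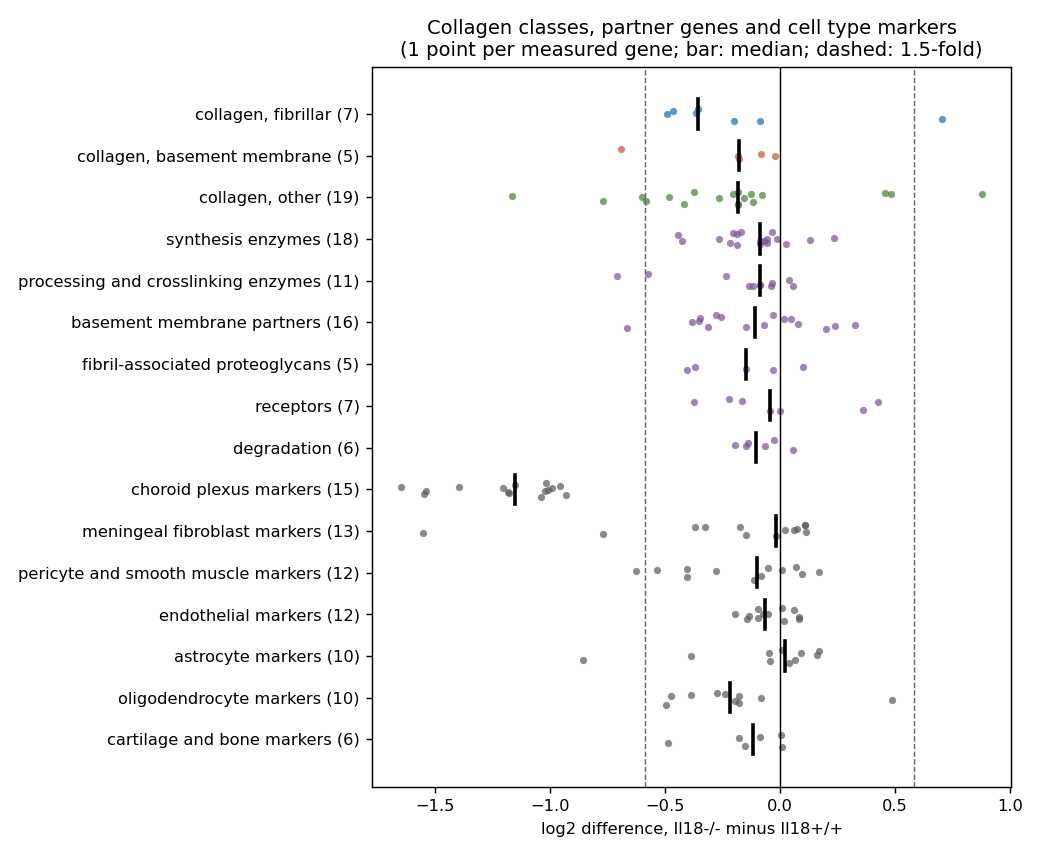
Difference between genotypes on the log2 scale for each measured gene (points) of the collagen classes, the partner lists and 7 of the marker lists, with a bar at each median and dashed lines at 1.5-fold. Collagen and partner medians lie between -0.35 and -0.04, and the choroid plexus markers all lie to the left of the 1.5-fold line.

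Markers of other cell types and tissues differed between the pools as well. Their lists were chosen with earlier results of these data known. Of all measured genes, 47.4% were lower and 52.6% higher by any size. At 1.5-fold, 2.57% of all were lower and 1.68% higher. All 15 choroid plexus markers were at least 1.5-fold lower in Il18-/-, with a median difference of -1.15 and a median level of 1.33 in Il18+/+ and -0.13 in Il18-/-. Cldn2 and F5, which differed most, were 3.13-fold and 2.93-fold lower. The 13 markers of meningeal fibroblasts, which include Col1a1, Col1a2, Col3a1 and the proteoglycan genes Dcn and Lum, were lower in 7 cases, with a median of -0.02, Igf2 at -1.55 and Slc13a4 at -0.77. The 12 pericyte and smooth muscle markers were lower in 8 cases, with a median of -0.10, Abcc9 at -0.63 and Myh11 at -0.54. The 12 endothelial markers were lower in 7 cases, with a median of -0.06 and a range of -0.20 to 0.08. Oligodendrocyte markers were lower in 9 of 10 cases, with a median of -0.22. Of 11 cartilage and bone markers 6 were measured, 4 of them lower, with a median of -0.12, while Matn1, Matn3, Ibsp and Sp7 were not well above background. All 9 measured medial habenula markers were higher (median 1.28), as were 11 of 12 liver markers (median 2.80) and 7 of 8 olfactory mucosa markers (median 0.49). The medians of the dentate granule and pyramidal neuron markers were 0.20 and 0.06, and those of astrocytes, oligodendrocyte precursors and microglia lay between -0.04 and 0.02. The part of these cell types and tissues in the collagen differences was not tested. Il18 itself read 1.37 in Il18+/+ and -0.12 in Il18-/-, or 2.80-fold lower, still well above background, and where its probe lies relative to the deletion is not known here.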

How the data were processed

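The deposited intensity values were made by the authors from the scans with Agilent Feature Extraction (version 10.10.1.1, as the submitters' processing notes also state). Per the file headers, this included background subtraction, spatial detrending, no scaling between arrays and a design on build mm9. Slide and scan were the same for both arrays. The authors' deposited value table is the same intensity times 1 constant per array (2.05 and 1.92), with no centring; what set the constants is unknown.

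From these, control spots and outlier spots (124 and 177) were left out, log2 was taken, the 75th percentile of each array (intensities 694.8 and 709.9) was subtracted and spots of a probe were averaged. Accessions matched to RefSeq (GRCm38.p6) named 27235 of 55681 probes and left 28446 unnamed. On the 2 arrays, 67.2% (Il18+/+) and 65.4% (Il18-/-) of probes were well above background. Genes were counted at 1.5-fold and 2-fold. Members and lists were chosen with earlier results of these data known. All members are accounted for; up to 4 genes per partner list and 2 per marker list were named, by size of difference. Clustered spots were those past 1.5-fold with at least 2 of the 18 nearest spots past 2-fold in the same direction.

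Alternatives were quantile, median, loess and spike-in scaling, normexp (offset 50, on the median signal and local background), dropping or tightening the filter on dim probes, reading the brightest probe of a gene, the deposited table, and leaving out clustered spots. The calculations were tested on simulated data. Normalization used limma 3.58.1 in R 4.3.3, and the rest matplotlib 3.10.9, scipy 1.17.1, pandas 2.3.3 and numpy 2.4.6 in Python 3.11.15.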

Additional observations from a re-analysis of the deposited data

How the results depend on the processing

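No paired analysis was possible because each genotype had 1 pool. The deposited table and the removal of clustered spots left every collagen value as it was. Under the other 8 alternatives the median of the collagens was negative, and between 25 and 27 of 31 were lower wherever the same 31 genes were measured. With no filter on dim probes 29 of 39 collagens were lower (74.4%), the smallest share of any alternative, against 45.1% of all 20660 genes. With the stricter filter 15 of 18 were lower, against 41.9% of all. Scaling to the spike-in controls lowered every gene by 0.31: it gave medians of -0.50 for the collagens, -0.67 for the fibrillar, -0.49 for the basement membrane and -0.50 for the other members, 12 collagens at least 1.5-fold lower and 0 higher, and 1862 lower and 127 higher among all genes, 94.6% of which were then lower. With normexp the fibrillar median was -0.15, and 1 collagen was lower and 1 higher at 1.5-fold, against 107 and 113 of all genes. With no filter on dim probes 1357 of all genes were lower and 815 higher at 1.5-fold, and Col6a4 turned to 0.042. With the stricter filter, 2 of the 18 collagens kept were lower and 1 higher at 1.5-fold. Of all 12341 genes kept, 129 were lower and 93 higher. That filter left out Col4a4, Col6a4 and Col27a1. Of 297 values of single collagen genes under the alternatives, 127 were identical to those reported. Of the 170 others, 117 moved by less than the spread between probes of a gene (0.12), 52 moved by more, and the 1 left is the turned sign of Col6a4; Col4a6, Col5a3, Col14a1 and Col15a1, all under 1.5-fold as reported, also changed sign under at least 1 alternative. The cause of these shifts was not tested. Dim signals limit the readings of Col6a4, Col15a1, Col27a1, Col9a1, Col19a1 and Col5a2, among others.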
